A study of Mus musculus with 4 samples.

Results

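Regions of the mouse genome that carried more acetylated histone H3 in a pressure-overloaded heart, and less of it when the overloaded heart had also been exposed to trichostatin A (TSA), are described here. A region was chosen by its presence in 2 lists that the authors deposited. It had to lie in the list of regions higher in the TAC Veh library than in the Sham Veh library and to overlap, by at least 1 bp, a region of the list lower in TAC TSA than in TAC Veh, on chromosomes 1 to 19. Of 1087 autosomal regions higher in TAC Veh than in Sham Veh, 384 (35.3%) met this rule, out of 18266 regions in all 6 lists of the series. The same 384 were 11.4% of the 3356 autosomal regions lower in TAC TSA than in TAC Veh. Because both lists were used to choose the regions, neither direction is a finding, and both contrasts share the TAC Veh library.

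The 4 groups came from left ventricles of male C57BL6 mice that were 10 to 12 weeks old, and chromatin was precipitated with an antibody to acetylated H3. The TAC TSA mice had transverse aortic constriction, which narrows the aorta so that the left ventricle pumps against a raised pressure, and received TSA dissolved in DMSO. TAC Veh mice had the same operation with DMSO alone, Sham TSA mice a sham operation with TSA, and Sham Veh mice a sham operation with DMSO. Injections were given under the skin 2 times a day, at 0.6 mg/kg/day, for 4 weeks in every group. There is 1 library for each group and hence no replicate, and no difference between conditions could be tested. Total promoter counts were 6842296 in TAC TSA, 8873302 in TAC Veh, 9905553 in Sham TSA and 9612616 in Sham Veh. TAC TSA thus had the fewest promoter counts, and its part in the choice of the regions was not tested. The labels of the sham libraries, unlike those of the TAC libraries, cite an earlier deposit, so the time of deposit and the surgery cannot be told apart.

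Acetyl groups are placed on the tails of histone H3 by acetyltransferases and removed by histone deacetylases, and acetylated H3 is found mainly at active promoters and enhancers. TSA blocks class I and class II deacetylases, enzymes that take part in the growth and fibrosis of the overloaded heart. A bulk ventricle holds cardiomyocytes, fibroblasts, endothelial cells and leukocytes, so fewer cells of a type and less acetylation per cell cannot be told apart. The lists hold no per-library value, only 1 score per region that is the authors' own. Its scale is not given in the sources used here, so it was used solely to rank and describe regions within a list. No mm9 sequence or annotation was used here, so the regions are given by position on the mm9 build, without sequence or gene.

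Each of the 384 regions matched exactly 1 region of the other list, and all 384 had the same start and the same end in both. A region therefore either had a full counterpart or had none, and no minimum overlap up to the whole width would change the count. The smallest region inside the rule was chr6:52932135-52932422, at 288 bp, with a score of 43.05 for lower in TAC TSA than TAC Veh and 46.59 for higher in TAC Veh than Sham Veh. Just outside it, chr17:32297778-32300113 lay 4 bp from the nearest region lower in TAC TSA than TAC Veh, and chr8:49640721-49641619 lay 5 bp away. The next were chr4:41802426-41803022 at 41 bp, chr11:86437170-86437873 at 57 bp and chr15:51991631-51992607 at 100 bp. In all, 11 regions outside the rule had a gap of at most 1000 bp.

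The regions were short stretches of chromatin with a few broad ones among them. Together they covered 419619 bp, with a median width of 810.5 bp and quartiles of 601.8 and 1291.2 bp. They were wider than the other 703 regions higher in TAC Veh than Sham Veh, whose median was 729 bp, and narrower than the other 2972 regions lower in TAC TSA than TAC Veh, whose median was 1093.5 bp. Widths of at least 1000 bp were seen in 143 of them (37.2%), against 187 (26.6%) and 1661 (55.9%) of those other regions. Only 14 reached 3000 bp, and 46 were under 500 bp.

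The 5 widest were spread over 5 chromosomes. The widest, chr2:90921736-90928776, spanned 7041 bp and had almost the same score in both lists, 81.82 for lower in TAC TSA than TAC Veh and 81.04 for higher in TAC Veh than Sham Veh. The next was chr4:42679644-42685723, at 6080 bp, with scores of 78.11 and 57.06 in the same order. Then came chr19:10351828-10357676, at 5849 bp, with scores of 60.07 and 44.15. The remaining ones were chr7:132746221-132751615, at 5395 bp, and chr14:70063039-70067535, at 4497 bp. The region on chromosome 14 scored 46.27 for lower in TAC TSA than TAC Veh and 85.89 for higher in TAC Veh than Sham Veh, the reverse of the order seen on chromosomes 4 and 19.

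Every deposited list started at a score of 40.00 to 40.01, and 75 of the regions (19.5%) had at least 1 of their scores under 42, 10 of them both. For lower in TAC TSA than TAC Veh the scores ran from 40.05 to 281.16 with a median of 52.30 and an upper quartile of 65.00. For higher in TAC Veh than Sham Veh they ran from 40.04 to 165.76 with a median of 48.06 and an upper quartile of 56.20. Medians in the rest of those lists were 48.78 and 45.49. In 117 regions both scores were under 50, and in 4 both were at least 100. A score of at least 100 was reached by 26 regions for lower in TAC TSA than TAC Veh and by 8 for higher in TAC Veh than Sham Veh. Of the whole autosomal list higher in TAC Veh than Sham Veh, 12 regions scored that high, and 8 of the 12 met the rule.

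**Figure D1:**
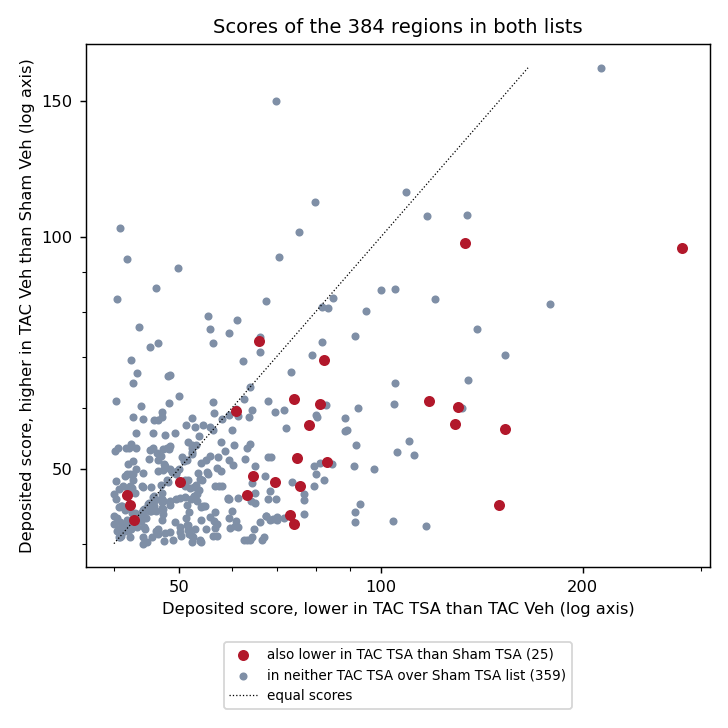
Scores of the 384 regions, with the score for lower in TAC TSA than TAC Veh on the horizontal log axis and the score for higher in TAC Veh than Sham Veh on the vertical log axis. Red points are the 25 regions that also overlap the list lower in TAC TSA than Sham TSA, grey points the other 359, and the dotted line marks equal scores; the upper quartiles are 65.00 on the horizontal and 56.20 on the vertical axis, and the highest horizontal score is 281.16.

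The strongest region for higher in TAC Veh than Sham Veh was chr2:154179270-154180213, 944 bp wide. It scored 165.76, the rank of 3 in its list, and 213.00 for lower in TAC TSA than TAC Veh, the rank of 4. A region of similar width, chr13:93564051-93564900, ranked 4 with a score of 150.12 and yet only 499 for lower in TAC TSA than TAC Veh, with 69.88. The ranks differed more at chr13:74017645-74018534, which ranked 11 with 102.61 for higher in TAC Veh than Sham Veh and 3147 with 40.83 for lower in TAC TSA than TAC Veh. Thus regions with a high score in one list did not all have a high score in the other.

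The regions ranked 7 to 10 for higher in TAC Veh than Sham Veh were broader and had high scores in both lists. On chromosome 12, chr12:91975310-91977688 scored 109.09 for lower in TAC TSA than TAC Veh and 114.56 for higher in TAC Veh than Sham Veh. On chromosome 14, chr14:34043430-34045713 had 79.82 and 110.98. On chromosome 3, chr3:54164671-54167043 had 134.65 and 106.69. On chromosome 5, chr5:34628920-34631753 had 117.02 and 106.41. These 4 were 2284 to 2834 bp wide. The last of the 10, in that list's order, were chr7:132746221-132751615 with 75.67 and 101.52, chr8:86521577-86521932 with 133.63 and 98.10, and chr4:46463011-46466647 with 281.16 and 96.72. The region on chromosome 8 was among the narrowest of all, at 356 bp.

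The region chr4:46463011-46466647, 3637 bp wide, had the highest score of the whole autosomal list lower in TAC TSA than TAC Veh, 281.16. Of the 10 highest regions in that list's order, 4 were also among the 10 highest for higher in TAC Veh than Sham Veh. The other 6 had lower scores in the overload contrast. They included chr4:84319744-84321192, with 178.85 for lower in TAC TSA than TAC Veh and 82.00 for higher in TAC Veh than Sham Veh, and chr4:151821928-151823240, with 153.39 and 56.34. Also on that chromosome, chr4:47140875-47143989 had 153.04 and 70.26. Further ones were chr10:79099356-79102598, with 139.35 and 76.08, and chr9:65112284-65114851, with 134.75 and 65.26. The last of the 6 was chr15:78140251-78143203. It ranked 14 for lower in TAC TSA than TAC Veh, with 149.90, and 633 for higher in TAC Veh than Sham Veh, with 44.91.

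Across all 384 the score for lower in TAC TSA than TAC Veh was the larger in 229 regions, the score for higher in TAC Veh than Sham Veh in 128, and the scores were equal to 2 decimals in 27. Those 27 were narrow, from 407 to 622 bp, with scores from 40.82 to 63.89. Wider regions had somewhat higher scores. Spearman's rho between width and score was 0.43 for lower in TAC TSA than TAC Veh and 0.22 for higher in TAC Veh than Sham Veh, over 384 regions that share the TAC Veh library. The 2 scores belong to comparisons of different pairs of libraries, and how they were obtained is not stated in the sources used here. Their difference is thus no measure of a difference in acetylation.

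The share of overload-raised regions that were also lower with TSA grew with the score for higher in TAC Veh than Sham Veh. With that list cut into 4 equal parts, from the lowest score to the highest, it was 24.3%, 34.2%, 38.0% and 44.9%. From the narrowest part to the widest it was 30.5%, 32.0%, 35.4% and 43.4%. In the list lower in TAC TSA than TAC Veh the share grew with score too, at 8.94%, 9.77%, 12.2% and 14.9%. With width it went the other way there, at 18.7%, 11.7%, 8.94% and 6.44%. No test was made, since the rule used both lists.

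**Figure D2:**
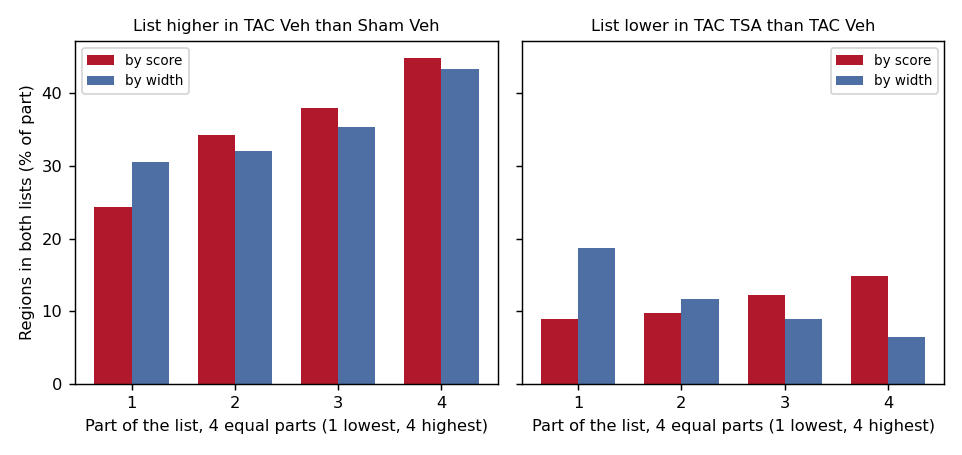
Percent of regions that met the rule, in 4 equal parts of the list higher in TAC Veh than Sham Veh (left) and of the list lower in TAC TSA than TAC Veh (right), by score (red) and by width (blue). The share climbs to 44.9% in the top score part on the left, and on the right falls to 6.44% in the widest part.

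Regions lay on every autosome, from 10 on chromosome 19 to 36 on chromosome 2. As a share of the regions higher in TAC Veh than Sham Veh they ranged from 22.6% on chromosome 9 (12 of 53) to 63.6% on chromosome 18 (14 of 22). Chromosome 6 held 33 of 65 (50.8%) and chromosome 15 held 24 of 51 (47.1%). As a share of the regions lower in TAC TSA than TAC Veh the range was 6.32% on chromosome 9 to 17.9% on chromosome 6. Chromosome 9 was thus lowest on both counts, while chromosome 18, with 12.2%, was high on the first count only. Outside the rule, 6 of 72 regions of chromosome X (8.33%) and 0 of 21 of chromosome Y had a counterpart lower in TAC TSA than TAC Veh. Most of these regions lay in a few crowded windows of 1 Mb. Windows with 21, 18, 9 and 6 regions on X, and with 13 and 8 on Y, each held 0 such counterparts. The low shares thus cannot be read as a trait of the whole chromosomes.

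**Figure D3:**
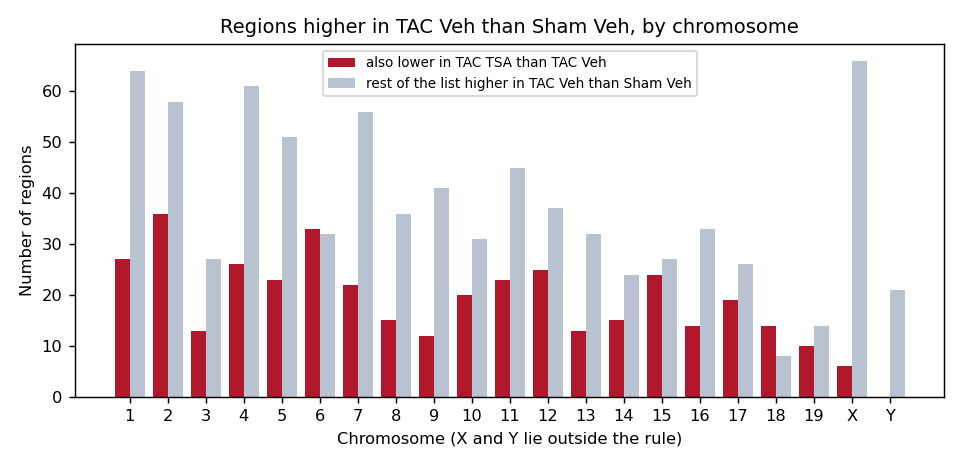
Number of regions higher in TAC Veh than Sham Veh on each chromosome, with those also lower in TAC TSA than TAC Veh as red bars and the rest of the list as grey bars. Red bars exceed grey ones on chromosomes 6 and 18 alone, and chromosomes X and Y, outside the rule, hold 6 and 0 red regions.

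Few of the regions had another one nearby. The median distance from one to the nearest other was 1782.4 kb, and within 50 kb of each other only 20 of the 384 were found, as 10 pairs. The closest pair, chr9:65112284-65114851 and the region 55 bp beyond it, scored 134.75 and 68.64 for lower in TAC TSA than TAC Veh and 65.26 and 51.93 for higher in TAC Veh than Sham Veh. A pair on chromosome 16, between 92620474 and 92624670, was 2924 bp apart and had scores of 40.82 and 47.11, then 40.82 and 47.63. The pair on chromosome 7 between 124615631 and 124635146 had 112.22 and 79.62 for lower in TAC TSA than TAC Veh, against 52.21 and 50.44 for higher in TAC Veh than Sham Veh. The other 7 pairs lay on chromosomes 6 (3 pairs), 9, 14, 15 and 17, with gaps of 19867 to 42678 bp. All 10 were of equal size, so the largest groups could not be told from the rest. Regions of 1 pair share their surroundings and are not independent.

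One stretch of chromosome 4 was crowded with overload-raised regions. Between 41 and 43 Mb lay 31 regions higher in TAC Veh than Sham Veh, of which 7 met the rule, and 16 regions lower in TAC TSA than TAC Veh. The 7 included chr4:42473439-42474398, with scores of 67.47 for lower in TAC TSA than TAC Veh and 82.53 for higher in TAC Veh than Sham Veh, and chr4:42332983-42336770, with 81.72 and 73.10. The 6080 bp region named above was a further one. Over all autosomal windows of 1 Mb that held at least 5 regions higher in TAC Veh than Sham Veh, 9 of 43 regions (20.9%) met the rule, against 375 of 1044 (35.9%) elsewhere. These windows were chosen after their counts were seen. Crowded stretches therefore added few of the 384.

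**Figure D4:**
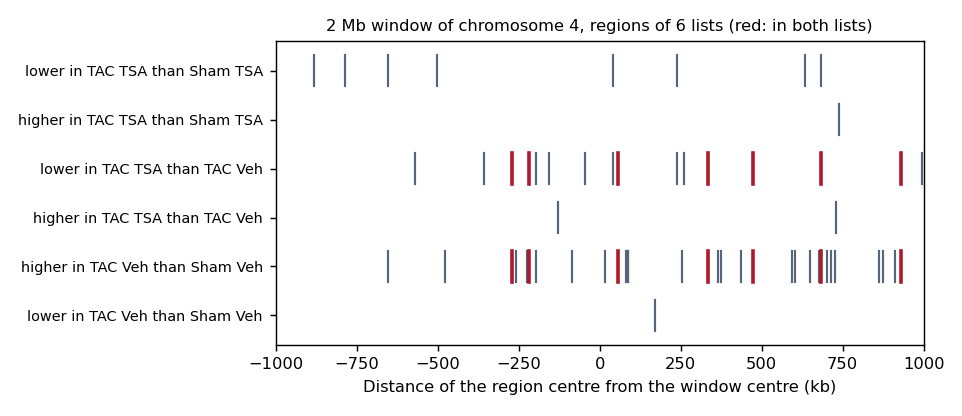
Regions of the 6 deposited lists in a stretch of 2 Mb of chromosome 4, drawn by the distance of their centres from the middle of the stretch in kb, with 1 row per list. Red marks are the 7 regions that are higher in TAC Veh than Sham Veh and lower in TAC TSA than TAC Veh; the row for higher in TAC Veh than Sham Veh holds 31 marks and the row for lower in TAC Veh than Sham Veh holds 1.

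None of the 384 overlapped the list lower in TAC Veh than Sham Veh (3797 autosomal regions) or the list higher in TAC TSA than TAC Veh (2091), directions that the rule all but fixes. Distances to regions of the opposite direction are given beside those of the other overload-raised regions, with no test made. The nearest region lower in TAC Veh than Sham Veh was at a median of 221.8 kb, against 231.9 kb for the rest of the list. The nearest region higher in TAC TSA than TAC Veh was at 334.5 kb, against 345.9 kb. Such a region lay within 10 kb of 6 of the 384 (1.56%) and of 25 of the rest (3.56%). A region lower in TAC Veh than Sham Veh lay within 10 kb of 13 (3.39%) and 18 (2.56%).

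The comparison of TAC TSA with Sham TSA was not used by the rule, but it shares the TAC TSA library with the contrast that was. In it 25 of the 384 regions (6.51%) overlapped the list lower in TAC TSA than Sham TSA, and 0 overlapped the list higher in TAC TSA than Sham TSA. Over all 1087 autosomal regions higher in TAC Veh than Sham Veh those shares were 2.76% and 2.94%. Among the 703 that did not meet the rule 5 (0.711%) overlapped the list lower in TAC TSA than Sham TSA and 32 (4.55%) the list higher in TAC TSA than Sham TSA. Among the 2972 other regions lower in TAC TSA than TAC Veh the counts were 639 (21.5%) and 1. The 25 regions were 0.478% of the 5230 autosomal regions lower in TAC TSA than Sham TSA, and none had the same start and end there. The remaining 359 regions were in neither list, which does not show that TAC TSA and Sham TSA were alike in them.

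The 25 regions were picked by an overlap that a wider region can meet more easily, with a list that shares the TAC TSA library. Differences in width and score from the other regions are thus no independent result. The 25 regions were broader and scored higher than the other 359 for lower in TAC TSA than TAC Veh. Their median width was 1313 bp, against 797 bp, and their median scores were 74.91, against 51.63, for lower in TAC TSA than TAC Veh and 51.67, against 47.62, for higher in TAC Veh than Sham Veh. Regions of the list lower in TAC TSA than Sham TSA that overlapped the 25 had other borders. Their scores ran from 41.02 to 341.68 with a median of 57.47. The one over chr15:78140251-78143203 was 4581 bp wide, against 2953 bp, and had 341.68, the rank of 2 in that list. The one over chr9:45053650-45054993 was 4185 bp wide, against 1344 bp, and had 307.97, the rank of 4. For higher in TAC Veh than Sham Veh these 2 regions of the rule had scored under 50, at 44.91 and 48.11. The one over chr4:46463011-46466647 followed with 108.41, then those over chr11:81859009-81860784 with 107.10 and chr8:86521577-86521932 with 98.89. The 25 regions of the rule lay on 14 autosomes, 5 of them on chromosome 15.

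Promoters with the same pair of directions were looked up in the deposited table of raw counts, because the regions themselves could not be tied to genes. They were picked after their values were seen, share the libraries of the rule, and were not matched to the regions by position. The promoter table was not limited to chromosomes 1 to 19, and 5 of the promoters picked, those of Vgll1, Timp1, Syn1, Mir223 and F630028O10Rik, lie on chromosome X and so outside the rule for the regions. A promoter was called apart when its TMM-scaled counts differed at least 1.5-fold and the exact 95% interval of the ratio, for counting error only, excluded equality. Of 22835 promoters 440 (1.93%) were called higher in TAC Veh than Sham Veh and 78 (0.342%) lower in TAC TSA than TAC Veh, and 25 (0.109%) were both. Only 11 of the 25 had a mean count of at least 100. Low counts thus underlie many of the 25. The 25 included genes of the matrix (Postn, Cilp, Ltbp2, Svep1 and Timp1), of leukocytes (Ctss, Mpeg1 and Mir223) and Runx1, a transcription factor of blood cells. Runx1 had 42.9 CPM (TMM-scaled counts) in TAC TSA, 85.1 in TAC Veh, 57.0 in Sham TSA and 54.1 in Sham Veh. Its log2 ratio was −0.99 (−1.22 to −0.76) for TAC TSA over TAC Veh and 0.65 (0.46 to 0.85) for TAC Veh over Sham Veh. TAC Veh was the single high library.

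Postn encodes periostin, a matrix protein of activated fibroblasts. Its promoter had 17.1 CPM (TMM-scaled counts) in TAC TSA, 30.8 in TAC Veh, 18.5 in Sham TSA and 17.9 in Sham Veh, again with only TAC Veh raised. Cilp, a cartilage and heart matrix protein, had 21.0, 34.6, 16.9 and 19.5 in the same libraries, and Ltbp2, a binding protein of the elastic fibre, had 28.2, 42.6, 24.7 and 27.9. Svep1, a large adhesion protein, had 22.6, 41.8, 25.3 and 27.0. A different order was seen for Mir21a, the gene of miR-21a, with 51.4 in TAC TSA, 83.7 in TAC Veh, 81.7 in Sham TSA and 51.2 in Sham Veh, so that Sham TSA lay close to TAC Veh. Mir223, the gene of a microRNA of myeloid cells, had 5.56, 10.9, 11.5 and 5.90. With F630028O10Rik and Serpina3i, these were 4 of the 25 called lower in TAC TSA than Sham TSA (0.206% of all promoters). Those 4 and Serpina3n were called higher in Sham TSA than Sham Veh (0.582% of all). Mature sequences of both microRNAs from RefSeq (GRCm38.p6) are shown because their promoters had this second order, with the seed, bases 2 to 8, in capitals, and their seeds differ.
mmu-miR-21a-5p: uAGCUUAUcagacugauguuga
mmu-miR-223-3p: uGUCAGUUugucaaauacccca

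**Figure D5:**
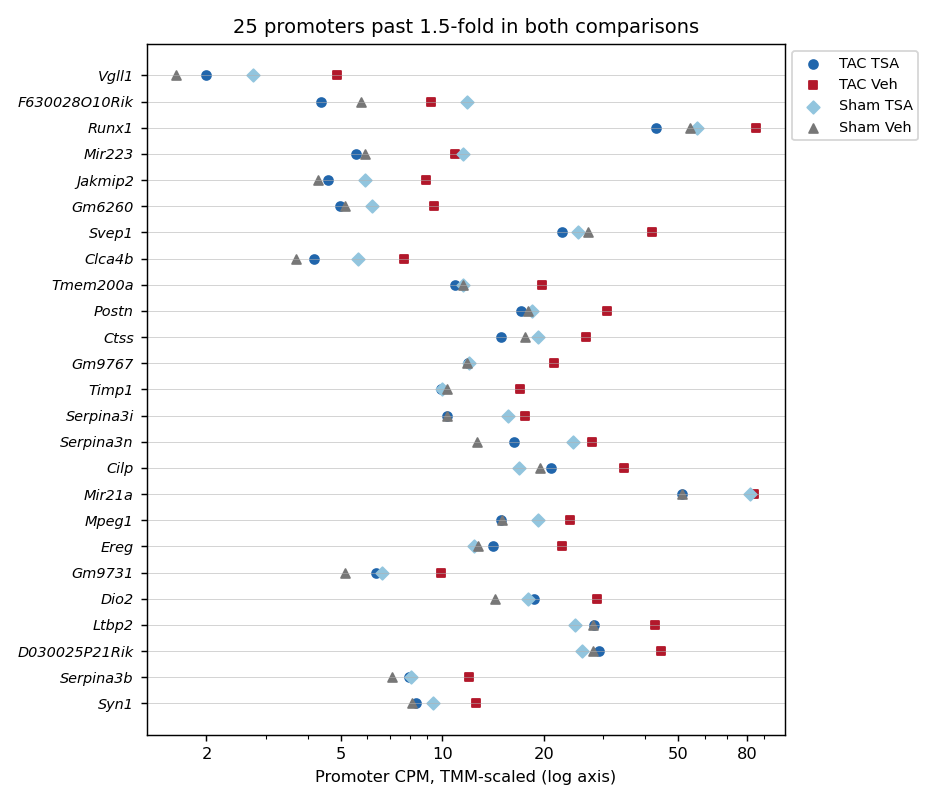
Promoter CPM (TMM-scaled counts), on a log axis, of the 25 promoters called higher in TAC Veh than Sham Veh and lower in TAC TSA than TAC Veh, with 1 point per library. Red squares (TAC Veh) lie to the right of the blue circles (TAC TSA) and the grey triangles (Sham Veh) in every row by the choice of rows, whereas light blue diamonds (Sham TSA) reach the red squares for Mir21a, Mir223 and F630028O10Rik.

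Several of the 25 promoters cannot be taken as independent. The genes Ltbp2 and D030025P21Rik, Tmem200a and Gm9767, Syn1 and Timp1, and Mir223 and F630028O10Rik neighbour each other, and Serpina3b, Serpina3i and Serpina3n are copies of 1 family. Neighbours were judged by gene, not by promoter. The promoters of Syn1 (chrX:20920869-20921168) and Timp1 (chrX:20869916-20870215, both GRCm38.p6) lie apart. Counts were also scaled on promoters of odour and pheromone receptors, taken here as inactive in the heart, which was not tested. With this receptor scaling 10 of the 25 kept both calls. They were Cilp, Mir223, Dio2, Serpina3n, Jakmip2, Clca4b, Vgll1, Gm6260, Gm9731 and Gm9767, several of them with low counts. Vgll1 had 10 reads in TAC TSA, 31 in TAC Veh, 19 in Sham TSA and 11 in Sham Veh. Runx1, Postn, Svep1, Ltbp2 and Mir21a were among those that did not keep both calls. The median raw count of these receptor promoters was 22 in TAC TSA, 20 in TAC Veh, 18 in Sham TSA and 17 in Sham Veh. It was thus highest in TAC TSA, the library with the fewest promoter counts. The part of this background in the calls was not tested. Receptor scaling moved the log2 ratios of all promoters alike, by −0.24 for TAC Veh over Sham Veh and −0.38 for TAC TSA over TAC Veh. The smallest rise among the 25 before it was 0.60, at Ctss, and the falls could only deepen. That each of the 25 kept both directions was thus fixed by their choice and is no test of the calls. Runx1 was at −1.37 for TAC TSA over TAC Veh and 0.41 for TAC Veh over Sham Veh under receptor scaling. Over all promoters 1.93% were higher in TAC Veh than Sham Veh, 0.342% lower in TAC TSA than TAC Veh and 0.109% both. The gene lists that follow were chosen with earlier results of these data known, so their counts beside these shares are no independent result. In the fibroblast and matrix list 6 of 25 promoters were higher in TAC Veh than Sham Veh and 5 lower in TAC TSA than TAC Veh. The 4 with both calls were Postn, Svep1, Timp1 and Runx1, which this list holds although blood cells use it too. Median log2 ratios of the list were −0.30 for TAC TSA over TAC Veh and 0.25 for TAC Veh over Sham Veh. With receptor scaling those medians were −0.68 and 0.01, and 1 promoter of the list, Thbs4, had both calls in place of those 4. Under that scaling 18 promoters of the list were lower in TAC TSA than TAC Veh and 1 was higher in TAC Veh than Sham Veh. Over all 22835 promoters it called 3259 lower and 119 higher. The leukocyte list had 3 of 13 lower in TAC TSA than TAC Veh, 2 higher in TAC Veh than Sham Veh and 1 both. Receptor scaling made these 7, 0 and 0. No promoter of the endothelial list (9 genes) or the smooth muscle list (7) was called in either comparison, which for so few genes is near the shares over all promoters. Of 10 promoters of fetal and hypertrophy genes, 1 was higher in TAC TSA than TAC Veh (4.06% of all promoters). In the same list 2 were higher in TAC Veh than Sham Veh, and 0 were both higher there and lower in TAC TSA than TAC Veh. Medians of 0.19 and 0.18 became −0.19 and −0.06 with receptor scaling. That scaling called 0 of the list higher in either comparison and 2 lower in TAC TSA than TAC Veh. Of 10 cardiomyocyte markers, 8 were higher in TAC TSA than TAC Veh (4.06% of all promoters) and 5 lower in TAC Veh than Sham Veh (0.582% of all), with median log2 ratios of 0.68 and −0.57. With receptor scaling those medians were 0.29 and −0.81. Under it 2 markers, Actc1 and Myh6, were called higher in TAC TSA than TAC Veh and 8 lower in TAC Veh than Sham Veh. Shares of all promoters with these calls were not counted under receptor scaling, so the 2 and the 8 have no background to be set against. The summed scaled counts of the 10 were 773 CPM in TAC TSA, 485 in TAC Veh, 779 in Sham TSA and 680 in Sham Veh, against 1224, 1546, 1296 and 1322 for the fibroblast and matrix list and 270, 339, 326 and 267 for the leukocyte list. No measured marker of these lists was at 0 in any library, and the part of cell makeup in the 384 regions was not tested.

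Promoter sequences of 20 of the 25 genes, 23 sequences of 300 bases from 250 before to 50 after the start, were found in RefSeq (GRCm38.p6). Every RefSeq promoter of a gene was taken, and Runx1, Postn and Tmem200a had 2 each. A sequence thus need not be the promoter whose counts were called. Matches on either strand were counted for the TATA box letters TATAAA, for TGTGGT, the core bound by RUNX factors, and for the AP-1 letters TGANTCA. None of these motifs is part of another. TATAAA was in 7 of 23 (30.4%), against 13.6% of 32851 promoters, TGTGGT in 4 (17.4%), against 16.8%, and TGANTCA in 0, against 7.81%. Promoters of 2 matrix genes with the first order of values are shown, with the TATAAA match of Svep1 (chr4:58206547-58206846, minus strand) and the TGTGGT match of Cilp (chr9:65264930-65265229, plus strand) in capitals, each read on the opposite strand. These GRCm38.p6 positions cannot be set beside the mm9 positions of the regions.
Svep1: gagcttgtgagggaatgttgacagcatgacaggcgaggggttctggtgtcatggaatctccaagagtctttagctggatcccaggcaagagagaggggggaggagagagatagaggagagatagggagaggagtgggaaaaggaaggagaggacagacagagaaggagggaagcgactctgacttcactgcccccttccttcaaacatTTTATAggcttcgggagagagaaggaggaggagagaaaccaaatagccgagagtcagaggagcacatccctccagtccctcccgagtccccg
Cilp: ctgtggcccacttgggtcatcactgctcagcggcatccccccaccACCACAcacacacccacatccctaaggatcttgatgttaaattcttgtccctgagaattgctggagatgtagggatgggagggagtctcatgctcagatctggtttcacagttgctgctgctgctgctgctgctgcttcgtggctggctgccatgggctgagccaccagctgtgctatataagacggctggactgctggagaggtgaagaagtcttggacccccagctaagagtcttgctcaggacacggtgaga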

How the data were processed

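Per the labels, acetylated H3 was profiled by ChIP-seq in 4 left ventricle libraries, 1 per group, and BWA 0.5.9, MACS 1.4.1 and mm9 are named in the submitters' processing notes. The authors deposited 6 lists of regions with a score per region, whose scale is not stated, and a table of raw read counts per RefSeq promoter, with no source used here stating its window or counting tool. No per-sample column was left unused (0). Overlaps, widths and distances were computed in Python 3.11.15 with pandas 2.3.3 and numpy 2.4.6, with coordinates 1-based. The members, gene lists and tests were chosen with earlier results of these data known. Regions named are the 10 highest in each list, the 5 widest, groups of neighbours (of 10 equal pairs, the closest and a few more after their values were seen), those nearest to the edge of the rule and, chosen after their values were seen, regions of a crowded stretch and of the list lower in TAC TSA than Sham TSA.

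Of 31594 RefSeq IDs, 31115 (98.5%) matched a symbol of GRCm38.p6, used for names only. The 479 others held 1.11% of counts and were left out. For a gene with several IDs, the ID with the highest mean count was kept. Of 23631 genes, 22835 had a mean count of at least 10. Counts were scaled by TMM (edgeR 4.0.16, R 4.3.3). Ratios carry exact 95% Clopper-Pearson intervals, which cover counting error only and treat PCR reads as independent molecules. The planned link from regions to genes needs an mm9 annotation and was not made. The overlap function was tested on planted regions and the ratio function on simulated counts. The distance function was not tested. DESeq2 1.42.0 size factors, total counts, loess and receptor promoters were alternative scalings.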

Additional observations from a re-analysis of the deposited data

Results flagged for a closer look

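The 25 regions that were higher in TAC Veh than Sham Veh and lower in TAC TSA than Sham TSA drew attention because the surgery contrast had opposite directions with TSA and with vehicle. With 1 library per group the difference between the contrasts was not tested.

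The promoters of 4 genes went the same way. F630028O10Rik had a log2 ratio of −1.44 for TAC TSA over Sham TSA and 0.69 for TAC Veh over Sham Veh, and its neighbour Mir223 had −1.05 and 0.88. Mir21a had −0.67 and 0.71, and Serpina3i had −0.61 and 0.77. F630028O10Rik had only 22 reads in TAC TSA, 59 in TAC Veh, 82 in Sham TSA and 39 in Sham Veh. Its interval for TAC Veh over Sham Veh started at 0.08, and it lost a place among the 25 with receptor and with loess scaling. Mir21a and Serpina3i lost theirs with receptor scaling only, and Mir223 kept its place with either. These differences were not tested either, and all 4 promoters were also higher in Sham TSA than in Sham Veh. F630028O10Rik and Mir223 lie on chromosome X, outside the rule for the regions.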

How the results depend on the processing

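The count of 384 regions was 384 when at least 50% of the shorter region had to overlap, 395 with gaps of up to 1000 bp allowed, and 151 when only regions at or above the median score of each list were kept. In alternatives chosen after seeing the data it was 390 with chromosomes X and Y and 375 without crowded windows. The 25 regions also lower in TAC TSA than Sham TSA numbered 14 at or above the median scores and 24 without crowded windows. Of the 384, 20 had another within 50 kb, 4 within 10 kb and 48 within 200 kb. The 25 promoters, with scalings all chosen after seeing the data, numbered 23 with DESeq2 size factors, 20 with total counts, 39 with loess (23 shared) and 25 with receptor promoters, of which 10 were shared. Receptor scaling moved the median of all genes by −0.38 for TAC TSA over TAC Veh and −0.24 for TAC Veh over Sham Veh, with 3259 promoters lower and 119 higher in place of 78 and 440. The cause of these moves was not tested. Alternatives on genes tied to regions were not run, for want of an mm9 annotation. With 1 library per group none could be left out. No paired analysis was possible because each group has 1 library and no test was made.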
